A study of Mus musculus with 9 samples.

Results

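Vegfa, Angpt1 and Pdgfa, secreted growth factors that act on blood vessels or on mesenchymal cells, were chosen by name and make up 3 of the 84 genes of this wound healing PCR array. They were measured in colon RNA of female C57bl6J mice, 8 to 9 weeks old, in 3 groups: untreated mice on regular drinking water (UN), mice given 3% dextran sodium sulfate, a compound that injures the colon lining and brings on colitis, in drinking water for 7 days (DSS), and mice given the same DSS together with 8 mg/kg/day of dipotassium glycyrrhizate, a salt of the liquorice compound glycyrrhizin, by gavage (DSS+DPG). RNA of 5 mice was pooled in each group and the pool was run on 3 arrays, 9 arrays in all, so the spread between arrays is technical and the p-values below say nothing about differences between mice. Expression was read as the threshold cycle (Ct), where each further cycle means 2 times less template if amplification is complete, so that Ct is a log2 scale running downward. Genes were not ranked by level, since Ct of different assays are not on a common scale. Differences in Ct between 2 genes of an array, and sums over several assays, were compared only across groups.

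Vegfa encodes vascular endothelial growth factor A, a secreted ligand that acts through receptors of endothelial cells, drives the sprouting of new vessels and makes existing ones leak. Angpt1 encodes angiopoietin 1, the ligand of the endothelial receptor Tie2, which is made by cells around the vessel, among them pericytes and smooth muscle cells, and keeps the vessel wall stable and tight. Pdgfa encodes the A chain of platelet derived growth factor, which acts mainly on mesenchymal cells, and in the gut it is known as a signal from the epithelium to the fibroblasts beneath it. The receptors of the 3 ligands and the usual endothelial markers are not among the genes of the array, so vessel density was not measured here.

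Promoter sequences from RefSeq (GRCm38.p6) were matched for 2 of the 3 members, Vegfa and Pdgfa. The 250 bases before a start site are shown for both, with every match to 3 short motifs in capitals. The motifs, searched on both strands, were ACGTG, the core of the hypoxia response element, GGGCGG, the GC box, and TATAAA, the TATA box. The Vegfa window lies at chr17:46032378-46032627 and the Pdgfa window, the one farther upstream of its listed start sites, at chr5:138994945-138995194, both on the minus strand. The Vegfa start site is the annotated start of the gene, whereas the Pdgfa start site does not match that of its gene.
Vegfa: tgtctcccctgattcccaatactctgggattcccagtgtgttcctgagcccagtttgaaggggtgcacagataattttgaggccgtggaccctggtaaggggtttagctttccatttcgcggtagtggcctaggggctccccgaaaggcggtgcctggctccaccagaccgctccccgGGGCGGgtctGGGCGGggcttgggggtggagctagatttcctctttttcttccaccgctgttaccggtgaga
Pdgfa: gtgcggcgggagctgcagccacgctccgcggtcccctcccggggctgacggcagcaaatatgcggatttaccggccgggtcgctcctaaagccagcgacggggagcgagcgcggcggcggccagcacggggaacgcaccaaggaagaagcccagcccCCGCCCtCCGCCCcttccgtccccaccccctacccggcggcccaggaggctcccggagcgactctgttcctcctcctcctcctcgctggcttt
Both windows held 2 GC boxes and no match to the other motifs searched. Sequence farther upstream was not searched. In the Vegfa window the GC boxes began 72 and 62 bases before the start site, and in the Pdgfa window 93 and 86 bases before it, on the other strand. Of 32851 promoter windows of the same length, 32.7% held a GC box, 16.6% held ACGTG and 12.4% held TATAAA. At the other start site listed for Vegfa, which lies downstream of the annotated gene start, the window held 1 ACGTG and 1 GC box. The other Pdgfa window, also away from the annotated start of its gene, held 1 GC box. The G and C content was 59.2% in the Vegfa window shown and 72.4% in the Pdgfa window shown. These matches describe the letters of the windows, and binding of a factor was not measured.

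Before the results, 2 features of the arrays bear on every value. The reference, a mean of Ct over 5 housekeeping genes (Hsp90ab1, Gusb, Gapdh, B2m and Actb), stood at 22.00 cycles for UN, 22.23 for DSS and 23.44 for DSS+DPG, and these genes did not move together. Hsp90ab1 came 1.08 cycles later in DSS than in UN while B2m came 1.10 cycles earlier, and in DSS+DPG against DSS the delay ran from 0.39 cycles for Hsp90ab1 to 1.71 for B2m. Second, replicate 3 of each group lay unusually often between the other arrays of its group. Over all genes with a Ct in the 3 arrays of a group, its Ct was between those of replicates 1 and 2, or equal to one of them, in 207 of 260 combinations of gene and group (79.6%), against 42 (16.2%) for replicate 1 and 31 (11.9%) for replicate 2 in the same position. Its median distance from the midpoint of the other arrays was 0.015 cycles for UN, 0.020 for DSS and 0.015 for DSS+DPG. For Vegfa, Angpt1 and Pdgfa it lay between them in DSS and in DSS+DPG but in no case in UN. The reason was not tested. The tests below use a spread that includes these arrays, and a call is also given without replicate 3 where that changes it.

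Vegfa had the earliest Ct in UN and came later in both groups given DSS. Its Ct was 26.29, 26.28 and 26.26 in the UN arrays, 27.14, 27.07 and 27.11 in the DSS arrays and 27.88, 28.05 and 27.97 in the DSS+DPG arrays. The 3 groups did not overlap in raw Ct, with steps of 0.83 cycles from UN to DSS and 0.86 cycles from DSS to DSS+DPG. Delta Ct, the Ct minus the mean of the 5 housekeeping genes in the same array, averaged 4.28 ± 0.030 (SD, n = 3 arrays) for UN, 4.88 ± 0.043 for DSS and 4.53 ± 0.095 for DSS+DPG. Relative to the housekeeping genes the order from high to low was thus UN, DSS+DPG, DSS, and neighbours in it did not overlap. Delta Ct of 95.2% of the panel genes did not overlap between UN and DSS, of 90.5% between DSS and DSS+DPG and of 93.9% between UN and DSS+DPG, so this separation was the rule on these arrays.

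Angpt1 was the only one of the 3 genes with an earlier Ct in DSS than in UN. Its Ct was 30.67, 30.76 and 30.80 in the UN arrays, 30.51, 30.40 and 30.49 in the DSS arrays and 32.59, 32.78 and 32.61 in the DSS+DPG arrays. The DSS arrays lay 0.28 cycles before the UN arrays and the DSS+DPG arrays 2.19 cycles after the DSS arrays, again with no overlap. Delta Ct averaged 8.74 ± 0.054 for UN, 8.24 ± 0.038 for DSS and 9.22 ± 0.11 for DSS+DPG (SD, n = 3 arrays), which gives the order DSS, UN, DSS+DPG with no overlap between neighbours.

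Pdgfa came later with each treatment. Its Ct was 26.89, 26.64 and 26.45 in the UN arrays, 27.78, 27.69 and 27.72 in the DSS arrays and 29.64, 29.48 and 29.59 in the DSS+DPG arrays. Its UN arrays lay far apart, at an SD of 0.22 cycles (percentile 86.9 of the panel) against a panel median of 0.0522. Delta Ct averaged 4.66 ± 0.23 for UN, 5.50 ± 0.030 for DSS and 6.13 ± 0.072 for DSS+DPG (SD, n = 3 arrays), so the order was UN, DSS, DSS+DPG, and neighbours did not overlap despite that spread. For each of the 3 genes the raw Ct of any 2 groups gave an exact permutation p of 0.1 (two-sided), the smallest that 3 arrays against 3 allow (0.104 after Benjamini-Hochberg adjustment over 24 such tests of these and the housekeeping genes).

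**Figure D1:**
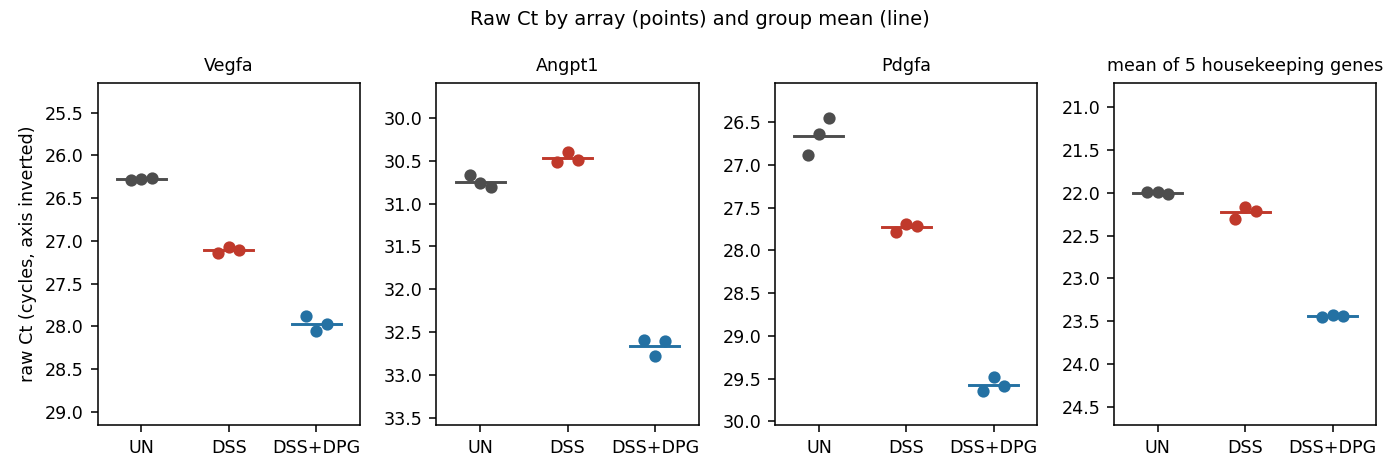
Raw Ct of Vegfa, Angpt1 and Pdgfa and the mean Ct of the 5 housekeeping genes, each point an array and each line the mean of the 3 arrays of a group, on inverted axes in cycles of equal length. Angpt1 was highest in DSS, whereas Vegfa and Pdgfa stepped down from UN to DSS to DSS+DPG, and the housekeeping mean was also delayed, from 22.23 cycles with DSS to 23.44 with DSS+DPG.

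The comparison of DSS with UN asks how the vascular growth factors stood in acute colitis. Angpt1 rose 1.42-fold (log2 difference 0.51, standard error 0.061, adjusted p = 8.21e-05 from limma), whereas Vegfa fell 1.52-fold (-0.60, standard error 0.051, adjusted p = 9.70e-06 from limma) and Pdgfa 1.79-fold (-0.84, standard error 0.11, adjusted p = 0.000124 from limma). All 3 changed, but so did most of the panel: 91.7% of the 84 genes passed in this comparison, 61.9% upward and 29.8% downward, so passing does not set these genes apart. With the 5 housekeeping genes none of the 3 reached the 3.5-fold threshold of the methods, which 29.8% of the panel did. With B2m alone Pdgfa (-2.17) and Vegfa (-1.93) passed it, and so they did with the panel's median Ct (-2.28 and -2.04). Ordered from the largest rise to the largest fall, Angpt1 was at place 44, Vegfa at place 66 and Pdgfa at place 72 of 84, and this order does not depend on the reference, which moves all genes alike. The median log2 difference of the panel was 0.71, above that of each member. The calls depended on which housekeeping gene was used. Against Hsp90ab1 alone Vegfa was higher in DSS (0.25) and Pdgfa did not differ past the test (0.013, adjusted p = 0.899 from limma), against Gapdh alone Vegfa did not pass (-0.12, adjusted p = 0.0804 from limma), and against B2m alone Angpt1 was lower in DSS (-0.82).

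The comparison of DSS+DPG with DSS asks how their expression stood when DPG was given with DSS. No vehicle gavage of the DSS group is described, so DPG cannot be told apart here from gavage or from differences between the pools. Here and below, "with DPG" and "after DPG" mean DSS+DPG against DSS. Angpt1 fell 1.98-fold (log2 difference -0.98, standard error 0.061, adjusted p = 9.95e-07 from limma) and Pdgfa 1.55-fold (-0.63, standard error 0.11, adjusted p = 0.000681 from limma), whereas Vegfa rose 1.27-fold (0.35, standard error 0.051, adjusted p = 0.000280 from limma). In this comparison 89.3% of the 84 genes passed, 76.2% downward and 13.1% upward, and Vegfa was among the 11 that rose. With the 5 housekeeping genes none of the 3 reached 3.5-fold, which 34.5% of the panel did. Angpt1 passed it, at 3.51-fold lower (-1.81), with the geometric mean of Hsp90ab1, Itga3 and Mif, Angpt1 (-2.19) and Pdgfa (-1.84) passed it downward with no reference, and Vegfa passed it upward (2.12) with the panel's median Ct. This comparison shares its DSS arrays with the one before. Vegfa stood at place 9 of 84 from the largest rise, Pdgfa at place 26 and Angpt1 at place 36, all above the panel median of -1.30. The direction of Vegfa rested on the reference. Each DSS+DPG array had a later raw Ct than any DSS array (-0.86 on the log2 scale with no reference), and the housekeeping mean was delayed by more. Against each of Actb, B2m, Gapdh and Gusb alone Vegfa rose with DPG, and against Hsp90ab1 alone it fell (-0.47). Against the geometric mean of Hsp90ab1, Itga3 and Mif, which is the reference that the authors' deposited average delta Ct follows, it also fell (-0.48). The fall of Angpt1 passed against each of the 5 housekeeping genes taken alone, from -1.80 to -0.48, and that of Pdgfa against 3 of them, the exceptions being Actb (-0.21, adjusted p = 0.133 from limma) and B2m (-0.13, adjusted p = 0.264 from limma). With the panel's median Ct in place of the housekeeping genes both were higher in DSS+DPG (0.79 and 1.14). The median log2 difference of the panel was then 0.47, in place of -1.30.

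Set against untreated colon, co-treated colon held less of all 3 transcripts. Pdgfa was 2.77-fold lower (log2 difference -1.47, standard error 0.11, adjusted p = 3.30e-06 from limma), Angpt1 1.39-fold (-0.48, standard error 0.061, adjusted p = 0.000103 from limma) and Vegfa 1.19-fold (-0.25, standard error 0.051, adjusted p = 0.00180 from limma). Of the 82 genes that could be tested here, 91.5% passed, 69.5% downward and 22% upward. With the 5 housekeeping genes none of the 3 reached 3.5-fold, which 30.5% did. Pdgfa passed it with the reference of the deposited averages (-1.89), with B2m alone (-2.30) and with no reference (-2.91), and Angpt1 only with no reference (-1.92). Pdgfa held place 63, Angpt1 place 33 and Vegfa place 27 of 82 from the largest rise, beside a panel median of -0.69. The small difference of Vegfa was the least stable call: without replicate 3 of each group it did not pass (-0.23, adjusted p = 0.0523 from limma), and it did not pass against Actb (0.0067), Gapdh (0.077) or Gusb alone (-0.040) or without B2m in the mean (-0.042). Angpt1 did not pass against Actb alone (-0.22, adjusted p = 0.0830 from limma) or with the panel's median Ct (-0.15, adjusted p = 0.110 from limma). Pdgfa was lower than in UN against each of the 5 housekeeping genes, from -2.30 to -1.14 on the log2 scale.

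**Figure D2:**
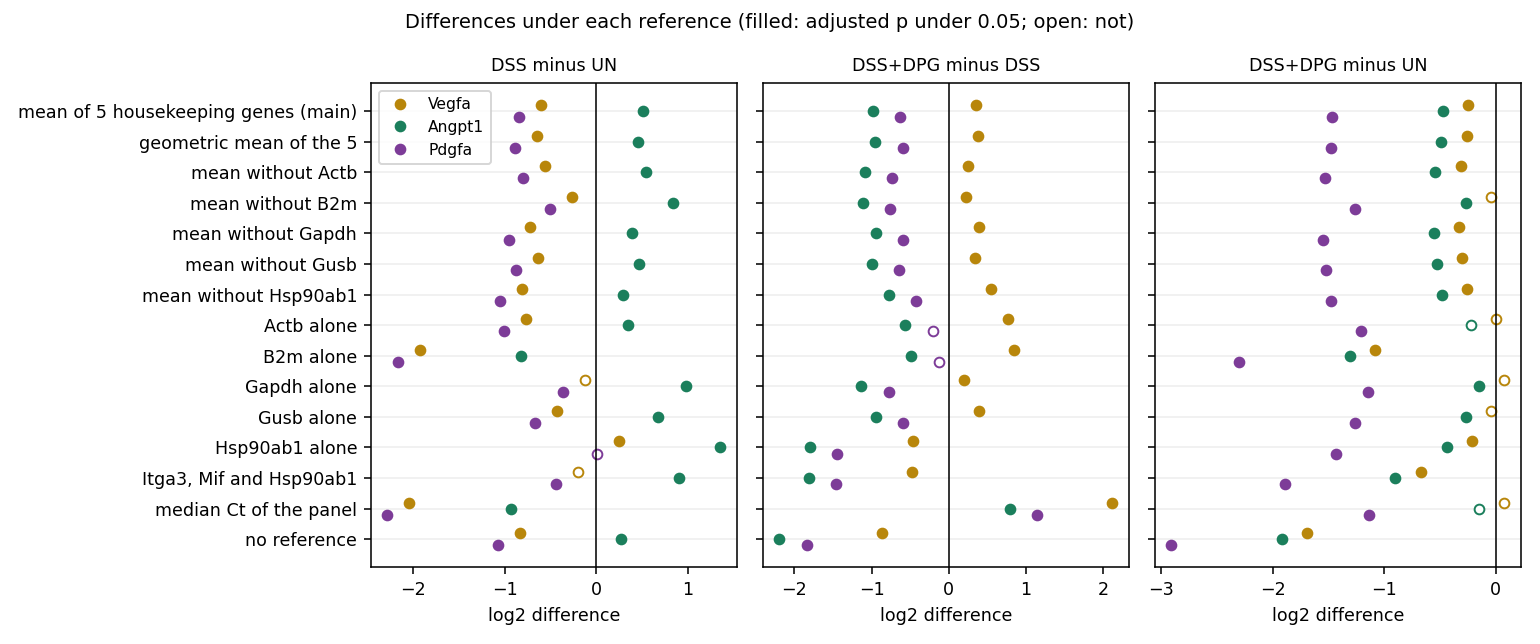
Log2 difference of Vegfa, Angpt1 and Pdgfa in the 3 comparisons (horizontal axis) under each reference (vertical axis), filled where the adjusted p from limma is under 0.05 and open where it is not. Vegfa in DSS+DPG against DSS lay at 0.35 with the 5 housekeeping genes, at -0.47 with Hsp90ab1 alone and at -0.86 with no reference, while Pdgfa in DSS+DPG against UN stayed below -1 under all references drawn.

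**Figure D3:**
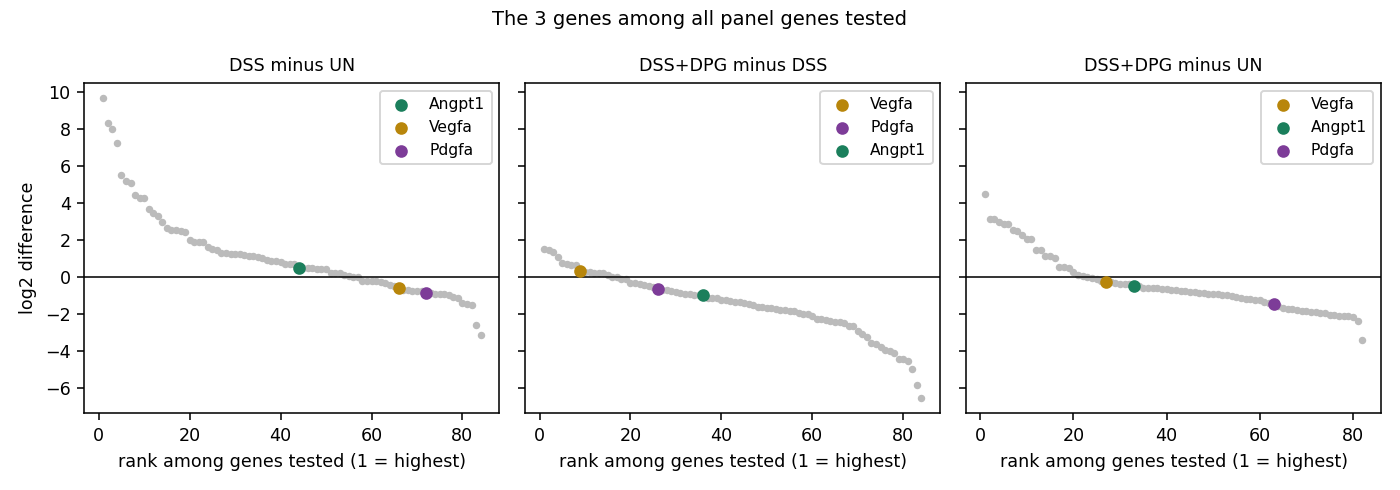
Log2 differences of all panel genes tested in each comparison, from the largest rise (rank 1) to the largest fall, with Vegfa, Angpt1 and Pdgfa coloured. None of the 3 genes lay at an end of a curve, with ranks 44, 66 and 72 for Angpt1, Vegfa and Pdgfa with DSS and ranks 9, 26 and 36 for Vegfa, Pdgfa and Angpt1 with DPG.

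The difference in Ct between 2 genes of the same array needs no housekeeping gene and shows whether the members moved by unequal amounts. Angpt1 over Vegfa, that is Ct of Vegfa minus Ct of Angpt1, was -4.38, -4.48 and -4.54 in the UN arrays, -3.37, -3.33 and -3.38 in the DSS arrays and -4.71, -4.73 and -4.64 in the DSS+DPG arrays. The ratio was thus 2.15-fold higher in DSS than in UN (log2 difference 1.11, standard error 0.049) and 2.52-fold lower with DSS+DPG than with DSS (-1.33, standard error 0.031). In DSS+DPG it ended 1.17-fold below UN (-0.23, standard error 0.054). The DSS arrays thus stood apart from both other groups, with Angpt1 higher relative to Vegfa, by more than the spread within any group.

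Pdgfa over Vegfa was -0.60, -0.36 and -0.19 in the UN arrays, -0.64, -0.62 and -0.61 in the DSS arrays and -1.76, -1.43 and -1.62 in the DSS+DPG arrays. This ratio was 1.97-fold lower with DSS+DPG than with DSS (-0.98, standard error 0.096) and 2.33-fold lower than in UN (-1.22, standard error 0.15). From UN to DSS it moved little, by -0.24 (standard error 0.12), and the lowest UN array (-0.60) lay next to the highest DSS array (-0.61). Without UN replicate 3 that difference was -0.14.

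Angpt1 over Pdgfa was -3.78, -4.12 and -4.35 in the UN arrays, -2.73, -2.71 and -2.77 in the DSS arrays and -2.95, -3.30 and -3.02 in the DSS+DPG arrays. It was 2.54-fold higher in DSS than in UN (1.35, standard error 0.17) and 1.28-fold lower with DSS+DPG than with DSS (-0.35, standard error 0.11). It remained 1.99-fold higher in DSS+DPG than in UN (0.99, standard error 0.20). In all 9 combinations of pair and comparison the arrays of the groups did not overlap (p = 0.1 in a two-sided exact permutation test, which is the least it can give here, and 0.1 after adjustment over the 9). Among all 3486 pairs of panel genes the same held for 90.9% in DSS against UN, 88.7% in DSS+DPG against DSS and 85.8% in DSS+DPG against UN.

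**Figure D4:**
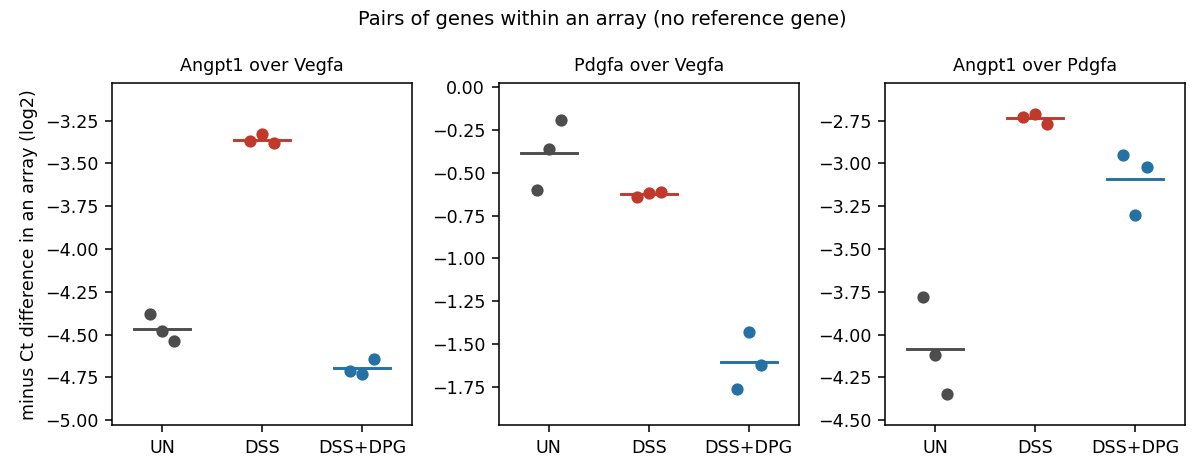
Differences in Ct between pairs of the 3 genes within an array, as log2 of the first over the second, each point an array and each line the mean of 3 arrays. Angpt1 over Vegfa lay near -3.36 in DSS and below -4.3 in UN and DSS+DPG, Pdgfa over Vegfa was lowest in DSS+DPG, and Angpt1 over Pdgfa was lowest in UN.

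The panel genes whose profile over the 9 arrays was closest to each member were found by the root mean square distance between profiles of minus delta Ct, each centred on the mean of its group means. For Vegfa they were Itga6 (0.182 cycles), a laminin-binding integrin chain of epithelium, Mapk3 (0.184), a kinase of the ERK pathway, and Ctnnb1 (0.188), beta-catenin. Itga6 and Ctnnb1 were lower in DSS than in UN, by -0.73 and -0.69, and did not pass in DSS+DPG against DSS, at 0.089 and 0.013, whereas Mapk3 was lower by -0.93 and then rose by 0.74. Angpt1 had the closest neighbour of all in Itgb6 (0.0704 cycles), an integrin chain of epithelium, with log2 differences of 0.45 with DSS and -0.94 with DPG, followed by Il6st (0.171), the shared receptor chain of the IL-6 family, and the protease Ctsk (0.189). Near Pdgfa lay the collagen-binding integrin chain Itga1 (0.179) and the small GTPase Rac1 (0.224), both of which fell with DSS (-0.47 and -1.14) and again with DPG (-0.73 and -0.81).

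Among 7 other growth factors of the array that are known to act on vessels (Fgf2, Hgf, Tgfb1, Tgfa, Hbegf, Ctgf and Igf1), 4 rose and 2 fell with DSS. In the panel 61.9% of the genes rose and 29.8% fell. The median log2 difference of these 7 was 1.20 against 0.71 for the panel. Hgf, the ligand of Met, rose most (2.43), and Tgfa, a ligand of the EGF receptor, fell most (-0.95). With DPG 6 of the 7 fell, Fgf2 by the most (-3.94), and Tgfa rose by 0.22. Their median was -1.59 against -1.30 for the panel, of which 76.2% fell, so this count lies near that of the panel. Over all 17 growth factors of the array, members included, 9 rose and 6 fell with DSS, and 4 rose and 12 fell with DPG. In the panel 61.9% rose and 29.8% fell with DSS, and 13.1% rose and 76.2% fell with DPG. The medians of the 17 were 0.51 and -0.98, beside panel medians of 0.71 and -1.30.

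Of 7 integrin chains that bind matrix on vessel cells (Itgav, Itgb3, Itgb5, Itga5, Itgb1, Itga1 and Itga2), 3 rose and 3 fell with DSS, from Itgav (0.87) to Itga1 (-0.47), where 61.9% of the panel rose and 29.8% fell. With DPG 6 of them fell, Itgav by the most (-1.52), and all 7 were lower in DSS+DPG than in UN. In the panel 76.2% and 69.5% of the genes were lower in these comparisons, and the integrins' medians of -0.84 and -0.83 stood beside panel medians of -1.30 and -0.69. Of 7 signalling genes that act below growth factor receptors, among them Mapk3, Stat3, Rac1 and Ctnnb1, 6 fell with DSS, Rac1 by the most (-1.14), and Stat3 rose by 0.43, where 29.8% of the panel fell. Their median was -0.89 against 0.71 for the panel. With DPG 2 of these rose, Mapk3 by the most (0.74), and 3 fell, with a median of -0.014 against -1.30, where 13.1% of the panel rose and 76.2% fell. Il1b, Il6, Tnf and Ptgs2, the inducible cyclooxygenase, are known to raise Vegfa in other settings. These 4 rose with DSS (median 5.48), as did 61.9% of the panel. Vegfa fell with the 5 housekeeping genes as reference but was higher with Hsp90ab1 alone (0.25). Whether these genes acted on Vegfa was not tested. All 4 fell with DPG (median -4.26), as did 76.2% of the panel.

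Markers of other cell types moved across the same groups, and in RNA of whole tissue fewer cells of a type and less RNA per cell cannot be told apart. All 18 marker genes listed had a Ct below 35 in every array, so none was absent. Beside the counts below, 61.9% of the panel rose and 29.8% fell with DSS, and 13.1% rose and 76.2% fell with DPG. The summed levels add several assays, so the assays with the earliest Ct weigh most in them, and they serve only to set the groups side by side. Relative to the housekeeping mean, the summed level of 4 epithelial markers was 0.687 to 0.760 in UN and 0.418 to 0.438 in DSS. In DSS+DPG it was 0.460 to 0.467, which gives the order seen for Vegfa with that reference. With DSS 1 of them rose and 2 fell, and with DPG 2 rose and 1 fell. The list was not uniform: E-cadherin, Cdh1, fell by 1.05 on the log2 scale with DSS and rose by 0.29 with DPG, whereas Itgb6 rose by 0.45 with DSS and fell by 0.94 with DPG. Itga3 was higher in DSS+DPG than in UN (0.27), and Itga6 did not pass with DPG (0.089). The medians of the list were -0.36 with DSS and 0.17 with DPG. The sum of 7 fibroblast markers was 3.65 to 3.71 in UN, 8.71 to 9.33 in DSS and 1.03 to 1.07 in DSS+DPG, the order seen for Angpt1, with 6 of the 7 genes higher after DSS and all 7 lower after DPG. Their medians were 0.49 and -1.71 against panel medians of 0.71 and -1.30, with Col3a1, a fibrillar collagen, changing most among them (1.48 and -3.55). The panel median was -0.69 in DSS+DPG against UN, so the panel as a whole stood in this same order. For the 3 smooth muscle and pericyte markers the sum was 4.57 to 6.06 in UN and 2.44 to 2.55 in DSS. In DSS+DPG it was 1.39 to 1.44, which gives the order seen for Pdgfa. All 3 fell with DSS, while 1 rose and 2 fell with DPG (medians -1.49 and -0.40). Actc1 was the marker that rose with DPG (1.10), so it did not follow that order, and Tagln fell most (-1.12). The sum of 4 neutrophil and macrophage markers was 0.0383 to 0.0395 in UN, 0.686 to 0.697 in DSS and 0.0563 to 0.0579 in DSS+DPG, all 4 rising with DSS and falling with DPG (medians 2.97 and -2.70). In DSS+DPG against UN 2 of these 4 were higher, Il1b by the most (2.87), and 2 lower, F13a1 by the most (-0.90). In the panel 22% were higher and 69.5% lower in that comparison. The part of any of these cell types in the values of Vegfa, Angpt1 and Pdgfa was not tested.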

How the data were processed

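The authors deposited raw Ct per well (a log2 scale without normalization), from 1 microgram of pooled RNA per reverse transcription and SYBR green PCR of 40 cycles, and group averages of Ct and delta Ct, also log2, from the web tool of the array's manufacturer (no version is stated in the labels or methods). For all 267 gene and group averages the deposited average Ct lay within 0.1 cycle of the mean of the raw values. The deposited average delta Ct implies a reference of 23.84, 24.48 and 24.86 cycles in UN, DSS and DSS+DPG, which is the geometric mean of Hsp90ab1, Itga3 and Mif and not the mean of the 5 housekeeping genes in the methods (22.00, 22.23 and 23.44). Files of fold changes, fold regulation, p-values and false discovery rates hold the authors' own comparisons and were not used.

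Ct missing or above 38 were set to 38; none of the 3 genes reached it. Minus delta Ct against the arithmetic mean of Actb, B2m, Gapdh, Gusb and Hsp90ab1 was fitted with limma 3.58.1 (R 4.3.3) to the 9 arrays together; p-values were adjusted by Benjamini-Hochberg across the genes tested (84, or 82 where 2 genes had no Ct below 38 in either group), and called at an adjusted p under 0.05. Single values were compared by exact permutation tests. Figures used Python 3.11.15 and matplotlib 3.10.9.

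The members, gene lists and alternatives were chosen with earlier results of these data known. Genes named are the 3 members, the panel genes nearest each (up to 3), the largest called rise or fall of a list, and the housekeeping genes; others named in a list were chosen by that list, and Tgfa with DPG was the single rise of its list. A result that these rules would name is not reported here. The alternatives were other references, limits of 35 and 40 cycles, a filter at 35 cycles, the methods' t-test, unadjusted p, fits restricted to the arrays of a comparison, a block for the replicate number, the authors' averages and leaving out arrays. The use of Actb, B2m, Gusb or Hsp90ab1 alone and leaving out replicate 3 of every group were chosen after seeing the data.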

Additional observations from a re-analysis of the deposited data

How the results depend on the processing

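The limits of 35 and 40 cycles, the filter at 35 cycles, the methods' t-test, unadjusted p, the fit of only the groups compared and the geometric mean of the housekeeping genes changed no call of Vegfa, Angpt1 or Pdgfa. The reference did. For DSS against UN, Vegfa was -0.12 with Gapdh alone and -0.19 with Itga3, Mif and Hsp90ab1, neither past the test, and 0.25 with Hsp90ab1 alone. Angpt1 was -0.94 with the median Ct of the panel and -0.82 with B2m alone, and Pdgfa 0.013 with Hsp90ab1 alone. For DSS+DPG against DSS, Vegfa was -0.48 with Itga3, Mif and Hsp90ab1, -0.86 with no reference and -0.47 with Hsp90ab1 alone. With the panel median Angpt1 was 0.79 and Pdgfa 1.14, and Pdgfa did not pass with Actb (-0.21) or B2m (-0.13) alone. For DSS+DPG against UN, Vegfa was -0.042 without B2m, 0.077 with Gapdh alone, 0.078 with the panel median, 0.0067 with Actb alone, -0.040 with Gusb alone and -0.23 without replicate 3, none past the test, and Angpt1 did not pass with the panel median (-0.15) or Actb alone (-0.22). The authors' average delta Ct gave -0.19, 0.91 and -0.43 for Vegfa, Angpt1 and Pdgfa in DSS against UN, -0.48, -1.81 and -1.46 in DSS+DPG against DSS, and -0.67, -0.90 and -1.89 in DSS+DPG against UN. These shifts follow from the construction of each reference, which moves all genes alike.

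The split of called genes, 52 higher and 25 lower for DSS against UN, became 23 and 48 with B2m, 61 and 16 with Gapdh, 67 and 7 with Hsp90ab1 alone and 21 and 51 with the panel median. For DSS+DPG against DSS it was 11 and 64, and became 19 and 57 with B2m alone, 2 and 75 with Hsp90ab1 alone and with Itga3, Mif and Hsp90ab1, 48 and 25 with the panel median and 0 and 78 with no reference (limma). For DSS+DPG against UN 18 and 57 became 25 and 46 with the panel median.

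For same-numbered arrays of different groups, the departures of each array from its group were correlated over the 84 panel genes. These correlations, which are not of the Ct levels themselves, ran from -0.19 to 0.34, with 4 of 9 above 0.1. The largest was between replicate 1 of UN and replicate 1 of DSS. Whether same-numbered arrays shared more than a number was not tested. With the replicate number as a block no call of the 3 genes changed, and 77, 75 and 76 genes were called in the 3 comparisons against 77, 75 and 75 without it. Leaving out 1 array at a time gave -0.62 to -0.58 for Vegfa, 0.49 to 0.54 for Angpt1 and -0.96 to -0.73 for Pdgfa in DSS against UN, 0.30 to 0.40, -1.02 to -0.92 and -0.67 to -0.60 in DSS+DPG against DSS, and -0.30 to -0.20, -0.52 to -0.41 and -1.59 to -1.36 in DSS+DPG against UN, all past the test. The number of arrays and the single pool of each group limit the precision of all values.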
